A study of Mus musculus with 16 samples.

Results

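Activated fibroblasts were followed through Fap, Postn, Lrrc15, Cthrc1 and Thbs2, and resting fibroblasts through Dpp4, Clec3b, Pi16, Dcn and Lum. These 10 genes were taken by name from a count table of 27179 mouse genes, through their Entrez identifiers, and all 10 passed the filter on low counts that left 16017 genes for testing. RNA had been sequenced from 15 mammary carcinomas of Trp53 null genotype in 5 treatment groups of 3 tumors, and from 1 internal reference library that enters no comparison. All tumors came from 1 tumor family, family F, passaged as F2 mammary tumor-derived transplants in the mammary site of female BALB/cJ mice aged 8 to 10 weeks, which keep their own immune system. A tumor entered its treatment group at 65 to 100 mm3 and was frozen 7 days after treatment.

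The groups are named here by treatment, as the labels give it. The Sham group received control immunoglobulin G (IgG, 25 mg/kg), and the TGFbi group received IPW-5371 (20 mg/kg daily), a small molecule inhibitor of TGFβ signaling. The RT group received 1 focal radiation dose of 10 Gy. The TGFbi+RT group received the inhibitor and the same dose, and the TGFbi+RT+anti-PD-L1 group, called the triple combination here, also received an antibody against the checkpoint ligand PD-L1 (10 mg/kg weekly). Agents were injected into the peritoneum 24 hours before irradiation. Whether the groups other than Sham were also given IgG is not given in the sources used here. The inhibitor was therefore present in 9 tumors and absent from 6. The labels number the tumors of a group without naming mice, so the p-values measure the spread between these tumors.

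Fibroblasts make and remodel the collagen-rich matrix of a tissue. Quiescent fibroblasts around vessels and in connective tissue sheets carry Dpp4, Pi16 and Clec3b and make the small leucine-rich proteoglycans decorin and lumican. Under TGFβ, a cytokine that drives matrix production, fibroblasts can take on a contractile, matrix-depositing state, and in tumors such cells are marked by Fap, Lrrc15, Cthrc1 and periostin. Both sets of genes are known from stromal cells, so their level in a whole tumor also depends on how much stroma was sampled. Whether the carcinoma cells also express some of them was not tested. In these bulk tumors, fewer cells of a type and less RNA per cell cannot be told apart.

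Promoters of 5 members are printed because the members of each set moved together between tumors, as described below. Fap, Cthrc1, Clec3b, Dcn and Lum had no entry in the promoter set used here and were not searched. They are the 250 bases before the transcription start that the count table's gene model also uses, from RefSeq on GRCm38.p6, written 5′ to 3′ on the gene's own strand. Capitals mark matches, on either strand, to 4 motifs: the AP-1 site TGANTCA, the SMAD box CAGAC, the TATA box TATAAA and the CCAAT box CCAAT.
Postn (chr3:54360857-54361106, plus strand): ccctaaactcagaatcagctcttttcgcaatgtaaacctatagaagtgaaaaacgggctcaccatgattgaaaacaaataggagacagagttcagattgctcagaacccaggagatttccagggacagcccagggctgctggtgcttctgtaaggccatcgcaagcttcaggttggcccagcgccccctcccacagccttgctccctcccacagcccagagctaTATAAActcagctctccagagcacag
Lrrc15 (chr16:30283255-30283504, minus strand): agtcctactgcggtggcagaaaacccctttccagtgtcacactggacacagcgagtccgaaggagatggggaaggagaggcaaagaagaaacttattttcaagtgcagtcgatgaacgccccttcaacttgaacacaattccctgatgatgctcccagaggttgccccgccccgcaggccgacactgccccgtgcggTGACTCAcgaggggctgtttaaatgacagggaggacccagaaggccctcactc
Thbs2 (chr17:14694263-14694512, minus strand): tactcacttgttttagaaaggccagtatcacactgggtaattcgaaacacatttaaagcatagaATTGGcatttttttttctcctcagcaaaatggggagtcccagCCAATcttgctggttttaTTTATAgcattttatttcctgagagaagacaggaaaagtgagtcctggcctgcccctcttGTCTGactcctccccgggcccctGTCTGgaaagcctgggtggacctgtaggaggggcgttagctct
Dpp4 (chr2:62412232-62412481, minus strand): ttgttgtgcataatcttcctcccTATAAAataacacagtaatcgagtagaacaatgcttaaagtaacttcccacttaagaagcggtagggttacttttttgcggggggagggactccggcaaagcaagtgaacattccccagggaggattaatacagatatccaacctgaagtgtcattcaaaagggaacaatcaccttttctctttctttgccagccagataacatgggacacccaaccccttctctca
Pi16 (chr17:29318632-29318881, plus strand): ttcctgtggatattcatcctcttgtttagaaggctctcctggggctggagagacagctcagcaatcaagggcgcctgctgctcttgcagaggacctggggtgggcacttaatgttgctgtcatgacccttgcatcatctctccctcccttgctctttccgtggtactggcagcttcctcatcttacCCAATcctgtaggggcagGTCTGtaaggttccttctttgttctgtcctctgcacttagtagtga
SMADs are the transcription factors that TGFβ receptors activate, and AP-1 often binds beside them. The Lrrc15 window held the only AP-1 match of the 5, a site found in 6.75% of 32851 mouse promoter windows of this length. CAGAC occurred at 2 places in Thbs2 and at 1 in Pi16, and 42.2% of all windows held it. Another Postn window, at a start that the gene model does not use, held 1 CAGAC and is not printed. TATAAA matched in Postn, Thbs2 and Dpp4 (12.4% of all windows) and CCAAT in Thbs2 and Pi16 (33.9% of all windows). No motif was shared by all searched members of either set, and a match is a description of letters, not a binding site. Among the members, Fap and Dpp4 are neighbors on chromosome 2, 88.7 kb apart with Gcg between them as the 1 coding gene. Dcn and Lum lie 47.3 kb apart on chromosome 10 with 0 coding genes between them.

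Library totals ran from 11002869 to 17184023 counts, with a median of 13302488. On the first principal component, which held 46.8% of the variance, the third TGFbi+RT tumor and the second triple tumor had scores of 102 and 114, while the other 13 lay between -88.5 and 33.1. Most library names carry a code: all 3 RT libraries and triple replicates 2 and 3 have A2304, and the other 10 were taken as A2301. Among these 10, TGFbi replicate 3 and TGFbi+RT replicate 3 were resubmitted libraries, whose column names show no code. RT against Sham and the code cannot be told apart. Epithelial markers, which fit the label of mammary carcinoma, summed to 637 to 2402 CPM in every tumor. CPM are counts per 1000000 of a library total scaled by TMM, which corrects for composition.

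Per kilobase of exon, the most abundant member was Postn, with a mean of 70.6 CPM per kb over the 15 tumors, above 95.5% of tested genes. Dcn followed at 29.4 and Thbs2 at 25.1 CPM per kb. Dpp4 was the least abundant, at 0.742 CPM per kb, and the other 6 members lay between 2.15 and 8.38 CPM per kb. Among the 15 tumors, the highest CPM of an activated member exceeded its lowest by 14.2-fold (Thbs2) to 52.7-fold (Lrrc15). For Pi16, Dcn and Lum the range was 134-fold, 215-fold and 160-fold. Dpp4 was at 0 counts in Sham replicate 3, where 3 counts would correspond to 0.194 CPM, and Clec3b was at 0 counts in RT replicates 2 and 3, where 3 counts would correspond to 0.203 and 0.211 CPM. These limits cover counting error only.

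In the Sham and RT groups, 1 tumor of 3 carried most of the RNA of the activated genes. Postn encodes periostin, a matricellular protein involved in the crosslinking of collagen fibrils. Its level was 955, 65.7 and 51.9 CPM in Sham replicates 1, 2 and 3, and 459, 64.5 and 71.7 CPM in RT replicates 1, 2 and 3. With the inhibitor it was 121, 89.2 and 185 CPM in TGFbi, 140, 96.3 and 338 CPM in TGFbi+RT, and 83.0, 568 and 204 CPM in the triple combination. The first tumor of Sham and of RT was thus far above the other two, and every inhibitor tumor lay below Sham replicate 1 and above the lower 2 tumors of both groups.

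Lrrc15 encodes a membrane protein with leucine-rich repeats that TGFβ induces on fibroblasts. Its highest tumor stood far above the other two in both groups without the inhibitor, with 120, 2.70 and 2.27 CPM in Sham and 80.5, 4.95 and 2.46 CPM in RT. The TGFbi tumors had 5.98, 2.87 and 20.5 CPM, the TGFbi+RT tumors 8.48, 4.80 and 3.84 CPM, and the triple tumors 5.27, 8.38 and 22.2 CPM. All 9 inhibitor tumors were below the first tumors of Sham and RT, and all were above the lowest tumor of each.

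Cthrc1 encodes a secreted protein of collagen-producing fibroblasts. Sham tumors had 20.5, 1.15 and 1.43 CPM and RT tumors 10.4, 1.36 and 1.33 CPM. TGFbi tumors had 2.73, 2.55 and 4.44 CPM, TGFbi+RT tumors 1.49, 1.81 and 1.11 CPM, and triple tumors 1.33, 3.27 and 8.11 CPM. Of neighbors in the order of group means, only TGFbi and TGFbi+RT did not overlap.

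Thbs2 encodes thrombospondin 2, a matricellular protein that limits vessel growth. Its level was 580, 64.7 and 71.3 CPM in Sham and 264, 69.6 and 40.8 CPM in RT. It was 80.8, 89.8 and 101 CPM in TGFbi, 117, 75.2 and 92.9 CPM in TGFbi+RT, and 101, 235 and 247 CPM in the triple combination. The 9 inhibitor tumors spanned a narrower range than the 6 tumors without it.

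Fap encodes a membrane-bound serine protease that cleaves after proline. Its order differed from that of the other activated members, with the highest group mean in the triple combination. Sham tumors had 7.69, 0.819 and 1.82 CPM and RT tumors 13.6, 1.70 and 2.32 CPM. TGFbi tumors had 6.16, 2.71 and 6.14 CPM, TGFbi+RT tumors 2.90, 2.52 and 8.02 CPM, and triple tumors 3.40, 19.5 and 7.85 CPM. The groups overlapped for every pair of neighbors in the order of means.

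**Figure D1:**
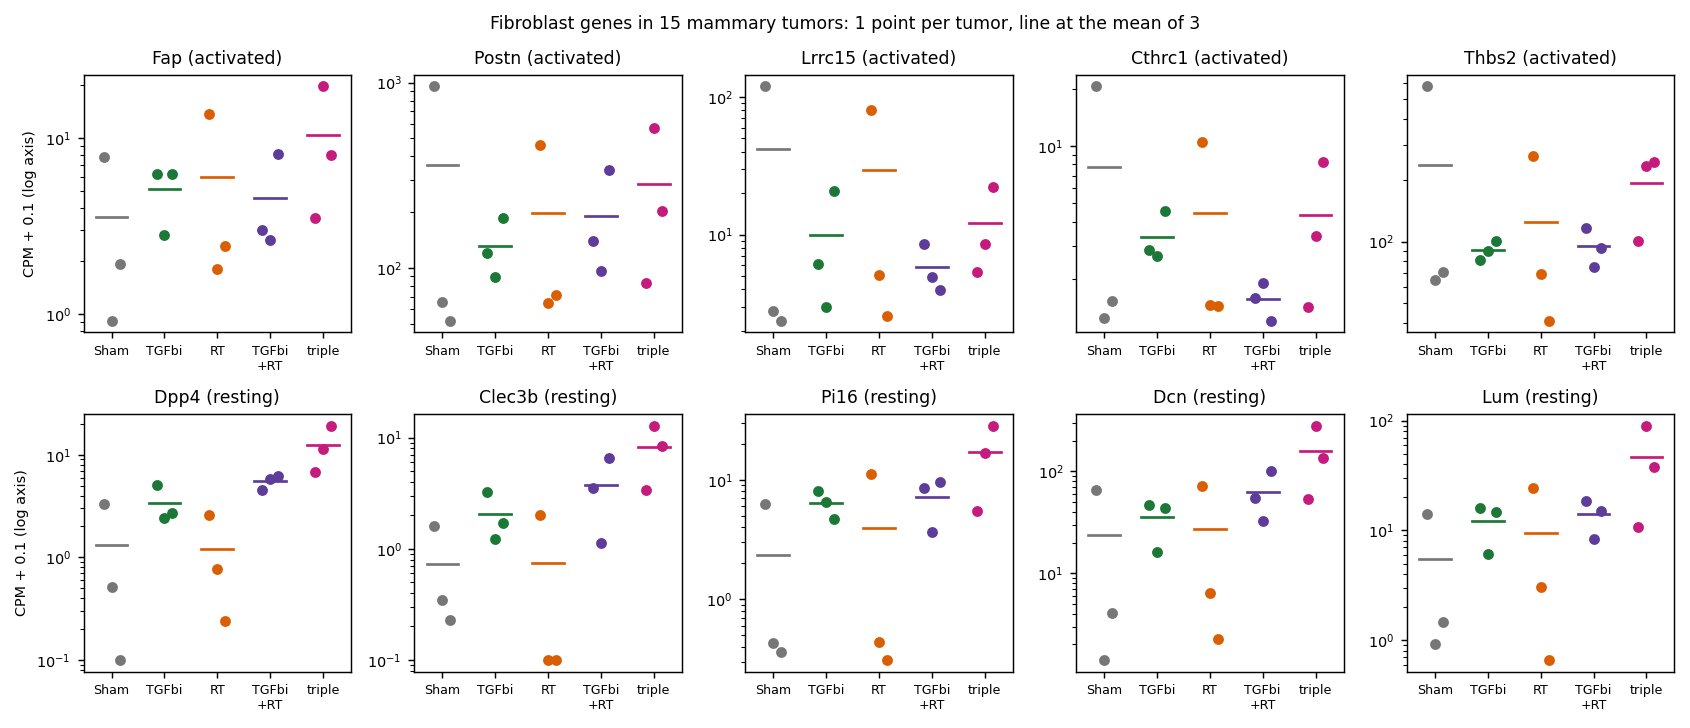
CPM of the 10 genes in each tumor, with 0.1 added and on a log axis, by treatment group (triple: TGFbi+RT+anti-PD-L1). Points are tumors and lines the mean of 3. For Sham and RT, 1 point stands far above the other 2 in most panels, such as 955 against 65.7 and 51.9 CPM for Postn in Sham, and the resting genes have their highest group mean in the triple combination.

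The resting genes were ordered differently across groups. Dpp4 encodes a dipeptidyl peptidase of the same protease family as Fap, and marks fibroblasts of the adventitia and fascia. Its level was 3.22, 0.409 and 0 CPM in Sham and 2.49, 0.679 and 0.141 CPM in RT. It was 4.92, 2.31 and 2.59 CPM in TGFbi, 4.46, 5.74 and 6.05 CPM in TGFbi+RT, and 6.74, 11.2 and 19.2 CPM in the triple combination. The 3 triple tumors were above all 12 others, and the 3 TGFbi+RT tumors were above all Sham and RT tumors.

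Clec3b encodes tetranectin, a plasminogen-binding protein. Sham tumors had 1.49, 0.246 and 0.130 CPM and RT tumors 1.93, 0 and 0 CPM. TGFbi tumors had 3.17, 1.12 and 1.62 CPM, TGFbi+RT tumors 3.42, 1.02 and 6.48 CPM, and triple tumors 3.27, 12.7 and 8.27 CPM. The triple and Sham tumors did not overlap.

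Pi16 encodes a secreted protein that marks adventitial fibroblasts. Sham tumors had 6.20, 0.327 and 0.259 CPM and RT tumors 11.0, 0.339 and 0.211 CPM. TGFbi tumors had 7.91, 6.38 and 4.61 CPM, TGFbi+RT tumors 8.41, 3.54 and 9.38 CPM, and triple tumors 5.40, 16.8 and 28.3 CPM. Every inhibitor tumor exceeded the lower 2 tumors of Sham and of RT, and the first RT tumor exceeded 7 of the 9 inhibitor tumors.

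Dcn encodes decorin, a proteoglycan that binds collagen and TGFβ. Sham tumors had 65.0, 1.31 and 4.02 CPM and RT tumors 72.0, 6.31 and 2.18 CPM. TGFbi tumors had 46.3, 16.2 and 43.7 CPM, TGFbi+RT tumors 54.8, 32.6 and 101 CPM, and triple tumors 54.0, 282 and 137 CPM. Lum encodes lumican, a related proteoglycan that spaces collagen fibrils, and it had 14.1, 0.819 and 1.36 CPM in Sham and 24.5, 2.99 and 0.562 CPM in RT. Its level was 16.0, 5.98 and 14.5 CPM in TGFbi, 18.5, 8.26 and 14.9 CPM in TGFbi+RT, and 10.7, 90.1 and 37.4 CPM in the triple combination. For both genes the inhibitor tumors lay above the lower 2 tumors of Sham and of RT and overlapped the first ones.

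None of the 10 members passed the threshold in any of the 8 contrasts or in the F test over the 5 groups (edgeR quasi-likelihood test, Benjamini-Hochberg adjustment over 16017 genes, threshold 0.05). The background was as low: 0.00624% of tested genes passed in TGFbi against Sham, 0.0312% in the inhibitor main effect, and 0% in each of the other 6 contrasts and in the F test. The inhibitor main effect is the average difference with and without IPW-5371 over unirradiated and irradiated tumors, with the triple group left out. At an unadjusted p under 0.05, 3 members differed between the triple combination and Sham, against 9.96% of genes that were higher by that rule. In the inhibitor main effect Dpp4 and Clec3b did, against 7.47% higher by that rule, and in the F test the same 2 did, against 10.8%. In the other 6 contrasts 0 members did, while 8.48% of genes did in TGFbi, 4.2% in RT and 15% in TGFbi+RT against Sham. That share was 1.99% for the triple combination against TGFbi+RT, 6.12% for the radiation main effect and 3.8% for the interaction.

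Dpp4, Clec3b and Lum were the 3 in the triple combination. Dpp4 had 12.4 ± 6.30 CPM there against 1.21 ± 1.75 CPM in Sham (SD, n = 3 tumors each). On the log2 scale the difference was 3.31 ± 1.09 (SE; edgeR adjusted p = 0.223). Clec3b differed by 3.65 ± 1.29 (edgeR adjusted p = 0.238) and Lum by 3.07 ± 1.25 (edgeR adjusted p = 0.288). Pi16 at 2.86 ± 1.33 and Dcn at 2.74 ± 1.35 had the same sign. All 5 resting members were thus above Sham by a median log2 of 3.07, against a median of -0.0043 over all tested genes, of which 49.5% lay above 0. With library code as a term in the edgeR model, 0 members had an unadjusted p under 0.05 in the triple combination against Sham or in the inhibitor main effect. Dpp4, Clec3b and Lum were then at 2.44, 2.34 and 0.96 in the triple combination, and 2 of its 3 libraries but no Sham library carry A2304. Only the triple group holds both codes, so the term is set by its replicates 2 and 3 against replicate 1. The triple value against Sham with this term rests on replicate 1, and the RT level is shifted by the same term. DESeq2 put Dpp4 at 3.33 (adjusted p = 0.0379), where 3.88% of its tested genes passed.

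Groups without overlap were few. Dpp4 was higher in all 3 tumors of TGFbi+RT and of the triple combination than in any Sham tumor, and higher in the triple combination than in TGFbi+RT. Clec3b was higher in all triple tumors than in any Sham tumor. Such separation upward held for 10.7% of tested genes in TGFbi+RT against Sham, 9.41% in the triple combination against Sham and 2.1% in the triple combination against TGFbi+RT. The triple combination and TGFbi+RT differ by the antibody and, for 2 of the 3 triple libraries, by the library code, and there Dpp4 differed by 1.19 ± 0.99 log2 units (edgeR adjusted p = 1.00).

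In the inhibitor main effect the 5 resting members lay above 0, and 4 of the 5 activated members lay below it. The signs of those 4 depended on the first Sham and RT tumors, as described below. Its log2 value was 1.84 ± 0.74 for Dpp4 (edgeR adjusted p = 0.288) and 2.03 ± 0.89 for Clec3b (edgeR adjusted p = 0.319). For Pi16, Dcn and Lum it was 1.16 ± 0.90, 0.90 ± 0.91 and 0.86 ± 0.84. Among activated members it was -2.22 ± 1.06 for Lrrc15, -1.41 ± 0.77 for Cthrc1, -0.90 ± 0.57 for Thbs2 and -0.75 ± 0.77 for Postn, and 0.06 ± 0.66 for Fap. None of these 10 values passed. The medians were 1.16 over the resting and -0.90 over the activated members, against -0.0089 over all tested genes, of which 48.7% lay above 0 and 51.3% below.

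The negative values of the activated members against Sham rested on 1 tumor. Postn, Lrrc15, Cthrc1 and Thbs2 had log2 fold changes of -1.44, -2.09, -1.25 and -1.40 in TGFbi against Sham. Without Sham replicate 1 the same values were 1.16, 1.97, 1.32 and 0.41. In TGFbi+RT against Sham, -0.90, -2.86, -2.39 and -1.33 became 1.70, 1.20, 0.18 and 0.48, and in the triple combination -0.33, -1.80, -0.87 and -0.30 became 2.27, 2.25, 1.70 and 1.51. In the inhibitor main effect, Postn and Thbs2 changed sign without that tumor (0.55 and 0.0073), while Lrrc15 and Cthrc1 stayed negative without any 1 tumor. Both turned positive, to 1.28 and 0.71, without the first tumors of Sham and RT together. The resting members stayed positive in these 4 comparisons when any 1 tumor was left out, but their sizes moved with single tumors. Without Sham replicate 1, Dpp4, Clec3b, Pi16, Dcn and Lum were at 5.95, 5.39, 5.80, 5.85 and 5.37 in the triple combination, and at 3.15, 2.90, 2.63, 2.46 and 2.01 in the inhibitor main effect. Without RT replicate 1 Clec3b, Pi16, Dcn and Lum were at 5.10, 3.03, 2.22 and 2.04 in the main effect, and the lowest main effect values were 0.63 for Dcn (without Sham replicate 2) and 0.58 for Lum (without RT replicate 3). In TGFbi against Sham, Dcn ran from 0.03 without Sham replicate 2 to 3.70 without Sham replicate 1.

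**Figure D2:**
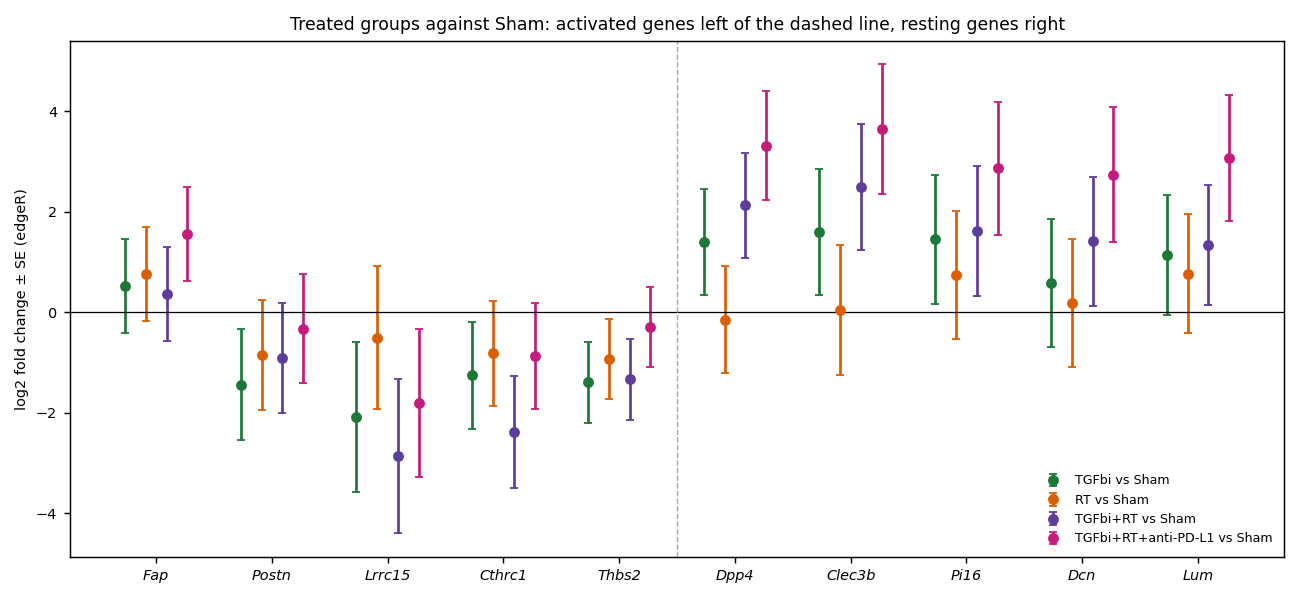
The log2 fold change of each gene against Sham (edgeR, bars ± SE, 3 tumors a group), activated genes left of the dashed line and resting genes right of it. Resting genes lie above 0 in the 3 inhibitor groups, up to 3.65 for Clec3b, while Postn, Lrrc15, Cthrc1 and Thbs2 lie below 0, values that turn positive without Sham replicate 1.

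No member passed in a comparison of radiation. Against Sham, the RT group had log2 fold changes between -0.94 (Thbs2) and 0.77 (Lum). The radiation main effect ran from -0.98 ± 0.76 for Cthrc1 to 0.51 ± 0.90 for Dcn. The interaction of inhibitor and radiation ran from -0.92 ± 1.32 for Fap to 1.39 ± 1.54 for Postn.

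Within a tumor, the 2 sets were compared as the mean log2 CPM (prior count 2) of the 5 activated genes minus that of the 5 resting genes. This difference was 3.67, 3.33 and 3.61 in Sham and 2.73, 3.14 and 4.02 in RT. It was 0.68, 1.31 and 1.91 in TGFbi, 0.46, 0.95 and 0.22 in TGFbi+RT, and 0.33, 0.06 and 0.33 in the triple combination. The 9 inhibitor tumors, at 0.06 to 1.91, did not overlap the 6 others, at 2.73 to 4.02, including Sham replicate 1 and RT replicate 1. By the activated genes alone, those 2 tumors were above all inhibitor tumors and the other 4 without the inhibitor were below them. Group means were 3.54 ± 0.18 in Sham, 3.30 ± 0.66 in RT, 1.30 ± 0.62 in TGFbi, 0.54 ± 0.37 in TGFbi+RT and 0.24 ± 0.16 in the triple combination (SD, n = 3). In the same order the mean resting level was 0.59, 0.78, 2.76, 3.27 and 4.44. The mean activated level was 4.13, 4.08, 4.07, 3.82 and 4.68, where Sham and RT include their high first tumors. The group means of the difference thus followed mainly the resting level.

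The inhibitor tumors averaged 0.69 and the others 3.42, a difference of -2.72 on the log2 scale. It was -2.70 among the 10 libraries taken as A2301, which include the 2 resubmitted ones, and -3.11 among the 5 of code A2304. The A2304 value sets triple tumors against RT tumors, which also differ by the antibody. The A2301 value sets TGFbi, TGFbi+RT and 1 triple tumor against Sham, so radiation and the antibody differ there too. No p is given, since the 10 genes were chosen with results of these tumors known. The separation also held with a prior count of 0.5, per kilobase, with DESeq2 size factors, and with Dcn and Lum left out, where the inhibitor tumors reached 3.18 and the others began at 3.87. Leaving out any 1 tumor kept the difference between -2.88 and -2.60.

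**Figure D3:**
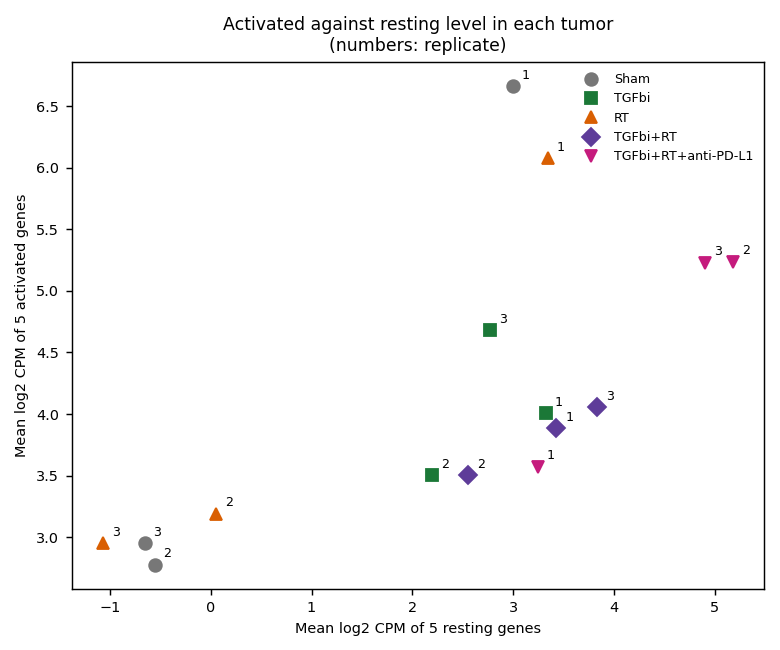
Mean log2 CPM of the 5 activated genes (vertical) against that of the 5 resting genes (horizontal), 1 symbol per tumor with its replicate number, symbols by treatment group. Vertical minus horizontal position is 2.73 to 4.02 in the Sham and RT tumors and 0.06 to 1.91 in the inhibitor tumors, and the first Sham and RT tumors stand at the top.

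No single member separated the 9 inhibitor tumors from the 6 others. Across all tested genes 0.112% separated upward and 0.268% downward. Among the 25 differences of 1 activated and 1 resting gene, 13 separated, all lower with the inhibitor. Of the 10 differences within the activated set and the 10 within the resting set, 0 did. Thbs2 minus Dpp4 was the widest example, at 3.68 to 5.21 log2 units with the inhibitor and 6.40 to 8.93 without it. Postn separated against Dpp4, Clec3b, Pi16 and Dcn, Lrrc15 against Pi16, Dcn and Lum, Thbs2 against Dpp4, Clec3b and Pi16, Cthrc1 against Dpp4 and Clec3b, and Fap against Lum alone. Set against every other tested gene, an activated member separated downward from 0.0562% (Fap), 0.112% (Lrrc15), 0.325% (Postn), 0.343% (Cthrc1) and 0.5% (Thbs2) of them. The share upward was 0.681% for Pi16, 0.506% for Dcn and 0.362% for Lum, but 4.75% for Clec3b and 13.2% for Dpp4, so that separation against Dpp4 was common among all genes.

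Over the 15 tumors all 45 pairs of members correlated positively in log2 CPM. The median Pearson r was 0.826 among activated pairs (Spearman rho 0.782), 0.924 among resting pairs (rho 0.897) and 0.578 among mixed pairs (rho 0.718). After each group's mean was removed, the medians were 0.863, 0.880 and 0.867. Pooled over the groups, tumors rich in activated genes for their group were thus also rich in resting genes. Between groups it was mainly the resting level that differed, with group means of 0.59 to 4.44 log2 CPM. Those of the activated level ran from 3.82 to 4.68. The first Sham and RT tumors weigh on these values, and r without them was not computed. Over the 15 tumors Fap did not follow its own set alone. Its r with activated members ran from 0.641 (Cthrc1) to 0.862 (Postn), and with resting members from 0.664 (Dpp4) to 0.874 (Dcn). Without the 2 tumors apart on the first principal component, its r was 0.845 with Cthrc1, 0.838 with Lrrc15 and 0.833 with Dcn. Single groups could differ: TGFbi+RT replicate 3 was the lowest of its group for Lrrc15 (3.84 CPM) and Cthrc1 (1.11 CPM). It was the highest there for Dcn (101 CPM), Clec3b (6.48 CPM) and Pi16 (9.38 CPM), but also for Fap and Postn. These values describe tumors that share libraries and stroma content.

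**Figure D4:**
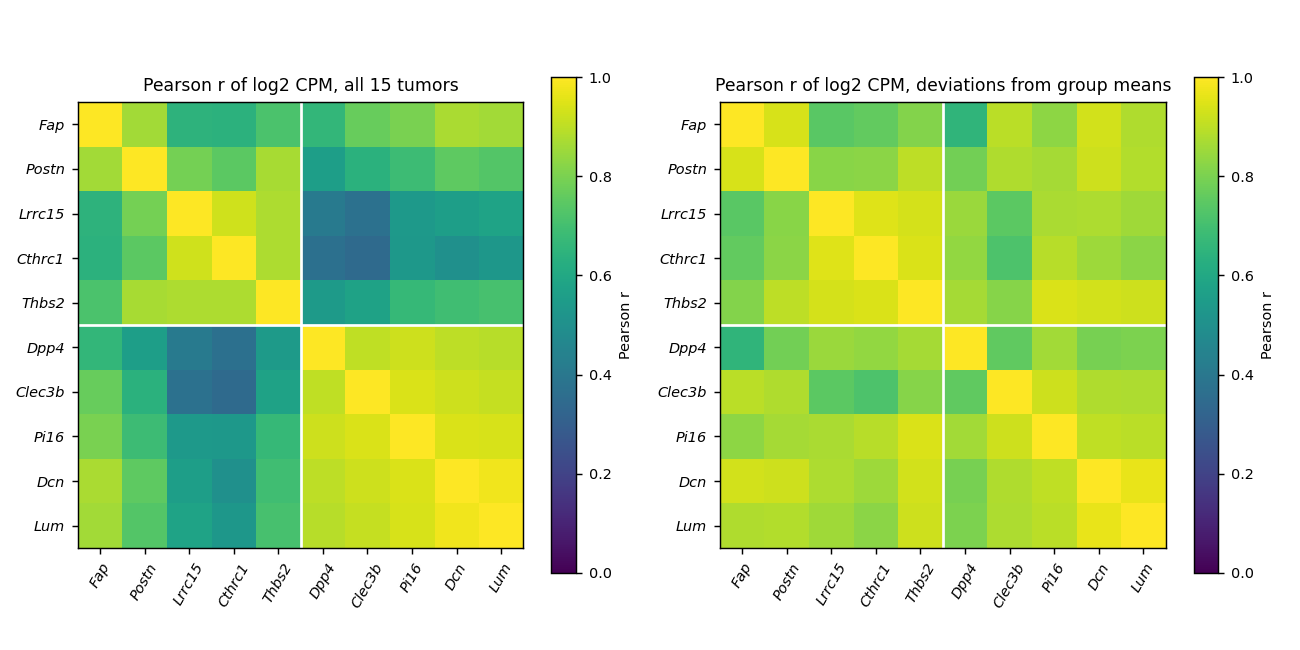
Pearson r between members in log2 CPM over 15 tumors (left) and after removing group means (right), with white lines between the activated and resting genes. Mixed pairs have a median r of 0.578 on the left and 0.867 on the right.

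The genes most alike to each member were sought among 13262 tested genes by Pearson r over the 15 tumors. The closest to Postn was Col5a2 (r = 0.962), a fibrillar collagen chain, to Lrrc15 Col12a1 (0.954), and to Cthrc1 the proteoglycan gene Aspn (0.958). Fap was closest to Cerk (0.976) and Thbs2 to Ptp4a3 (0.937). Efemp1, which encodes the matrix protein fibulin 3, was closest to Dpp4 (0.965), and Dpt, which encodes dermatopontin, to Clec3b (0.966) and Pi16 (0.982). Dcn (0.985) and Lum (0.956) shared Scn7a. By mean r to the activated set, Adam19, Col5a1, Col5a2, Emcn, Aspn and Cd93 ranked first (0.882 to 0.870), of which Emcn and Cd93 are known from endothelium. By mean r to the resting set the first were Dpt, Efemp1, Tnxb, Ces2g, Adgrd1 and Abi3bp (0.956 to 0.941).

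Wider lists of fibroblast genes were read beside the members. Of 36 tested genes of an activated fibroblast and matrix list, which excludes the members, 32 lay below 0 in the inhibitor main effect, with a median log2 of -0.36 and 0 past the threshold. This count rested on the same single tumors. The list summed to 19704 CPM in Sham replicate 1 against 2944 and 2975 CPM in the other Sham tumors, and to 17139 CPM in RT replicate 1 against 3745 and 3434 CPM, while the TGFbi and TGFbi+RT tumors lay between 4705 and 10182 CPM. Without Sham replicate 1, 7 of the 36 lay below 0 (median 0.38), without RT replicate 1, 11 of 37 (median 0.27), and without both, 6 of 36 (median 0.95), settings added after the data were seen. Mmp11, a stromal metalloprotease, was at -0.94 ± 0.32 (edgeR adjusted p = 0.227), and Acta2, smooth muscle actin, at -0.62 ± 0.30 (edgeR adjusted p = 0.358). Mean Acta2 was 151 CPM in TGFbi against 421 CPM in Sham, but 347 CPM in TGFbi+RT against 294 CPM in RT. For Mmp11 the same means were 3.71 against 10.9 CPM and 7.82 against 9.74 CPM. Neither gene was followed on its own with tumors left out. In the triple combination against Sham, 25 of the 36 lay above 0, with a median of 0.30. Of 27 tested genes of a resting and adventitial list, 17 lay above 0 in the inhibitor main effect (median 0.18) and 22 in the triple combination (median 1.13), with 0 past the threshold in either. Without the first Sham and RT tumors these counts were 24 (median 1.22, 1 past the threshold) and 23 (median 2.47). With all tumors kept, Efemp1 at 4.71 ± 1.47 (edgeR adjusted p = 0.214) was above Sham in the triple combination. So was Ly6a, which encodes the progenitor marker Sca-1, at 3.57 ± 1.15 (edgeR adjusted p = 0.218).

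Pan-fibroblast genes, which mark fibroblasts in either state, had a median log2 of -0.12 in the inhibitor main effect and 1.02 in the triple combination over 14 tested genes. Without the first Sham and RT tumors these medians were 0.99 and 1.97. Of proteases related to Dpp4 and Fap, Dpp8, Dpp9 and Prep were at -0.14 ± 0.09, -0.14 ± 0.09 and -0.27 ± 0.18 in the inhibitor main effect. Tgfb1, the ligand, was at 0.43 ± 0.32.

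Markers of some other cell types moved with the members. Others did not: in Sham, epithelial markers summed to 1193 to 1294 CPM and Schwann cell markers to 403 to 409 CPM. Endothelial markers summed to 706 CPM in Sham replicate 1 against 122 and 169 CPM in the other Sham tumors, and to 679 CPM in RT replicate 1 against 238 and 124 CPM. Macrophage markers summed to 453 and 1029 CPM in these first tumors and to 137 to 316 CPM in the other 4. All 12 adipocyte markers lay above 0 in the inhibitor main effect, with a median log2 of 3.79 and 0 past the threshold. Their sum was 15.1 to 104 CPM in Sham, 14.5 to 184 CPM in RT, 71.0 to 463 CPM in TGFbi, 85.6 to 697 CPM in TGFbi+RT and 169 to 523 CPM in the triple combination. Adipoq and Retn, which define fat cells, were each at 0 counts in 5 of the 6 tumors without the inhibitor and in 1 of the 9 with it. T cell markers summed to 1.56 to 5.13 CPM in Sham and 3.88 to 140 CPM in the triple combination. All 5 tested skin keratinocyte markers lay above 0 in the inhibitor main effect (median log2 1.79), with 0 past the threshold. Their sum was 7.46 to 9.07 CPM in Sham, 7.19 to 7.67 CPM in RT and 8.45 to 117 CPM in TGFbi. The 4 tested erythrocyte markers also lay above 0 there (median log2 0.81, 0 past the threshold). The part of fat, skin, blood, vessels or immune cells in the members' values was not tested.

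When each tumor's mean log2 CPM of the 14 pan-fibroblast genes, which include no member, was added to the model as a term, the members' standard errors were smaller. This fit was added after the data were seen, and the treatment may itself alter that level. In its inhibitor main effect 3 members were called higher, where 1.66% of tested genes were called and 1.09% were called higher. Clec3b was at 2.59 ± 0.52 (edgeR adjusted p = 0.0340), Pi16 at 2.18 ± 0.42 (edgeR adjusted p = 0.0303) and Dcn at 1.75 ± 0.33 (edgeR adjusted p = 0.0301). Dpp4 at 2.22 ± 0.53 and Lum at 1.51 ± 0.36 had adjusted p-values of 0.0538 and 0.0543 by edgeR. Activated members lay between -1.03 ± 0.58 (Lrrc15) and 0.27 ± 0.22 (Fap), and none was called. The other 8 tests of this fit called 0 members, against at most 0.4% of genes, in TGFbi+RT against Sham.

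The calls of this fit depended on single tumors. Leaving out 1 tumor at a time gave 0 to 4 members called. The count was 0 when the omitted tumor was replicate 1 or replicate 3 of Sham, replicate 2 of TGFbi or replicate 3 of RT, and also 0 without the first Sham and RT tumors together. Pi16 was called in 10 of the 15 fits, Clec3b in 8, Dcn in 6, and Dpp4 and Lum in 1 each. Clec3b ran from 2.35 to 4.61, Pi16 from 1.97 to 2.74 and Dcn from 1.57 to 2.07. Postn, Lrrc15, Cthrc1 and Thbs2 were below 0 in all 15 fits, with Lrrc15 at -1.47 to -0.47 and Thbs2 at -0.70 to -0.28, and Fap was above 0 in all 15. Without the first Sham and RT tumors together, Lrrc15, Cthrc1 and Thbs2 turned positive in this fit (0.63, 0.062 and 0.084), while Postn stayed at -0.03 and the resting members at 1.91 to 4.77.

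**Figure D5:**
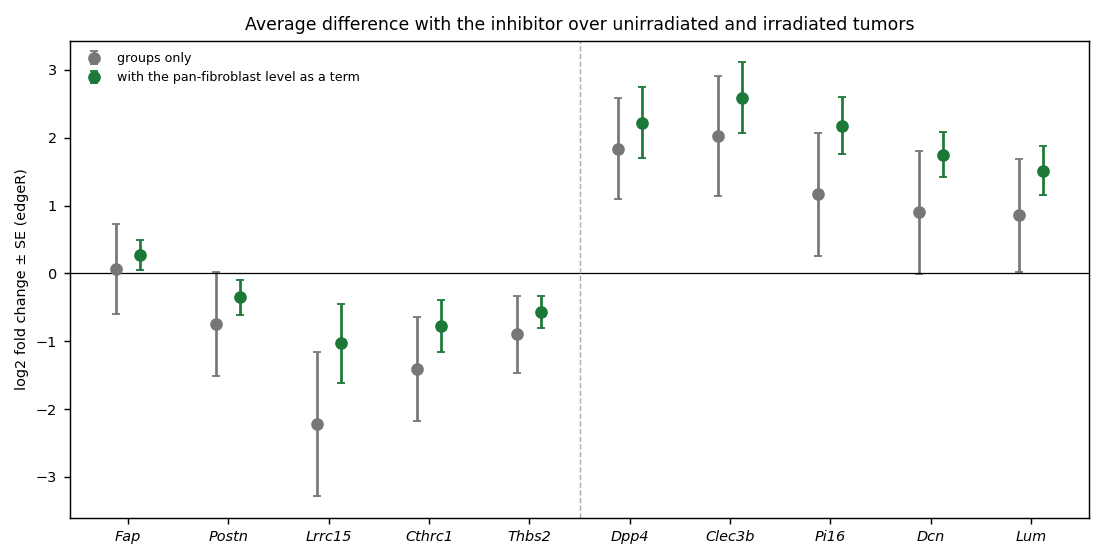
The log2 difference with the inhibitor, averaged over unirradiated and irradiated tumors (edgeR, bars ± SE), for the model with groups only (gray) and with the pan-fibroblast level as a term (green). With the term the standard errors are smaller, and Clec3b, Pi16 and Dcn pass the threshold at 2.59, 2.18 and 1.75, calls that are lost without Sham replicate 1.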

How the data were processed

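The 10 members and all gene lists were chosen with earlier results of these data known. The deposited table holds raw counts per Entrez gene for 16 libraries, with no normalization by the authors. The exon coordinates and other values of the deposited annotation table gave gene lengths. The build GRCm38 comes from the submitters' processing notes, and column names mention Subread. Aligner settings, strand setting and annotation release are not given in the sources used here, so reads of overlapping genes may be shared.

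Symbols matched 25275 of 27179 genes. In R 4.3.3, edgeR 4.0.16 filtered low counts (filterByExpr), scaled by TMM (factors 0.919 to 1.05) and fitted 1 mean per group to the 15 tumors (10 residual degrees of freedom). Alternatives used DESeq2 1.42.0, limma 3.58.1 (voom), other scalings, a library code term, a replicate block and tumors left out in turn. The test was run on simulated data. Named genes were the members, a fixed list of 24 and the genes most alike to members (average log2 CPM of at least 1). Motifs were searched with Python in RefSeq windows.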

Additional observations from a re-analysis of the deposited data

Results flagged for a closer look

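The internal reference library, which no comparison used, held signal above the highest Sham tumor for 8 of the 10 members. The share of all tested genes above the highest Sham tumor was not computed, so this count has no background to be judged by. CPM of this library use its own total over the tested genes without a TMM factor, unlike those of the tumors. It had 18.5 CPM of Fap, 23.5 CPM of Cthrc1 and 734 CPM of Thbs2 among the activated genes. Among the resting genes it had 14.6 CPM of Dpp4, 4.79 CPM of Clec3b, 24.1 CPM of Pi16, 336 CPM of Dcn and 47.7 CPM of Lum. Cthrc1, Thbs2 and Dcn were above all 15 tumors too. Postn and Lrrc15, at 827 and 84.5 CPM, were below Sham replicate 1. The labels call it a reference control of the same tumor type and do not say how it was made.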

How the results depend on the processing

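None of the 10 members passed in any of the 9 tests under most alternatives, and 3 exceptions stand out. DESeq2 called 1 member, Dpp4, in the triple combination against Sham (and gave Lrrc15 no adjusted p). Omitting the first Sham and RT tumors called 1, Pi16, in the inhibitor main effect (log2 4.50, adjusted p = 0.0162, where 0.0611% of genes passed), and the pan-fibroblast term called 3 there. Those last 2 settings with their left-out tumors, the gene lists without these tumors, and omitting the 2 tumors apart on the first principal component, were chosen after seeing the data.

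Signs were followed in the 4 comparisons that hold the inhibitor, and the radiation contrasts only by their calls. They changed for activated members and for no resting one, though single tumors moved resting values by over 1.5 times. Omitting the first Sham and RT tumors gave Postn, Lrrc15, Cthrc1 and Thbs2 values of 1.16, 1.96, 1.32 and 0.41 in TGFbi against Sham, 1.67, 1.18, 0.16 and 0.46 in TGFbi+RT, 2.25, 2.23, 1.67 and 1.48 in the triple combination, and 1.31, 1.28, 0.71 and 0.59 in the inhibitor main effect. With a replicate block, Postn, Cthrc1 and Thbs2 were at 0.73, 0.063 and 0.40 in the triple combination. By limma-voom, Postn was at 0.15 in TGFbi+RT, 0.52 in the triple combination and 0.061 in the inhibitor main effect, and Thbs2 at 0.37 in the triple combination. With library code as a term, Fap was at -0.030 in the triple combination and Postn at 0.36 in the inhibitor main effect. Fap in TGFbi+RT and in the inhibitor main effect was at -0.36 and -0.38 without the resubmitted libraries, and at -0.37 and -0.29 without the 2 tumors apart. With the pan-fibroblast term, omitting the first Sham and RT tumors turned Lrrc15, Cthrc1 and Thbs2 positive (0.63, 0.062 and 0.084). Library code as a term left 0 members at an unadjusted p under 0.05 in the triple combination against Sham and in the inhibitor main effect, from 3 and 2. Only the triple group holds both codes, so the term is set by that group alone. The triple value against Sham then rests on triple replicate 1, and the RT level is shifted by the same term. The cause of the sign changes was not tested.

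Leaving out 1 tumor gave ranges across 0. Against Sham in TGFbi, TGFbi+RT and the triple combination, Postn ran from -1.96 to 1.16, -1.62 to 1.70 and -1.34 to 2.27, Lrrc15 from -3.23 to 1.97, -3.44 to 1.20 and -2.61 to 2.25, Cthrc1 from -1.76 to 1.32, -2.90 to 0.18 and -1.75 to 1.70, and Thbs2 from -1.85 to 0.41, -1.79 to 0.48 and -0.76 to 1.51. In the inhibitor main effect Postn ran from -1.08 to 0.55, Thbs2 from -1.12 to 0.0073 and Fap from -0.28 to 0.82. Fap in TGFbi+RT ran from -0.37 to 1.73.

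In their deviations from group means, same-numbered tumors of different groups correlated at -0.58 to 0.67 (median -0.05, 13 of 30 pairs over 0.1). The labels state no pairing by number, and these values show none common to all groups but cannot exclude it. The replicate block called 0 members in all 9 tests. With 3 tumors a group, single-gene standard errors near 1 log2 unit limit what can be seen.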
